A study of Mus musculus with 10 samples.

Results

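Genes of the non-sarcomeric contractile cytoskeleton were followed through 2 stages of mouse embryonic stem (ES) cell culture, each without and with EBIO, an opener of small- and intermediate-conductance calcium-activated potassium channels. The set held 10 genes: the tropomyosins Tpm1, Tpm2, Tpm3 and Tpm4, the actin cross-linkers Actn1, Actn4 and Flna, and the adhesion and fibre proteins Vcl, Zyx and Lima1. They were taken with all 28 probe sets that the platform annotation gives to one of them alone, out of 18193 named genes and 45037 probe sets. The genes were proposed with the results of these EBIO comparisons in view, chosen by the measured EBIO differences in both stages, so those differences are a description of the data, and counts of calls stand beside the share called among all genes.

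The series' title concerns these potassium channels, the formation of heart cells from pluripotent cells and enrichment for cells resembling pacemaker cells. All arrays measured total RNA of CGR8, an ES cell line of strain SV129. The ES groups were untreated cells (n = 3) and cells given 1 mM EBIO for 3 days (n = 3), each with 1 array from passage 25, 26 and 27. The differentiated groups had 5 days as embryoid bodies and 10 more days without EBIO (n = 2) or with it (n = 2). The labels give no EBIO dose for the differentiated cells and name no selection or sort, so each array there is a mixture of whatever cells the culture held. Samples of a group are called independent experiments in the design text.

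Tropomyosins are coiled-coil proteins that lie end to end along actin filaments and set which other proteins reach the filament. Each of their genes makes several proteins through alternative promoters and exons, some built into muscle sarcomeres and others into the stress fibres of non-muscle cells. Alpha-actinins and filamin cross-link actin filaments, vinculin and zyxin join fibres to focal adhesions, the integrin contacts with the matrix, and Lima1 (EPLIN) binds and stabilises actin filaments. Many of these genes are known targets of serum response factor (SRF) and its actin-regulated coactivators, and of the TEAD and AP-1 factors.

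The stretches upstream of these genes are shown because 9 of the 10 genes moved together in ES cells and Lima1 moved the other way. RefSeq promoter sequences (GRCm38.p6) matched all 10 genes, and the 250 bases before each annotated start were searched on both strands for the CArG box bound by SRF, for the MCAT element of TEAD factors (GGAATG) and for the AP-1 site (TGANTCA). Below, the matches are in capitals and all other bases in lower case, 5′ to 3′ on the gene's strand. The Vcl window lies at chr14:20929148-20929397, plus strand, the Lima1 window at chr15:99820150-99820399, minus strand, the Tpm1 window at chr9:67049214-67049463, minus strand and the Zyx window at chr6:42349578-42349827, plus strand.
Vcl: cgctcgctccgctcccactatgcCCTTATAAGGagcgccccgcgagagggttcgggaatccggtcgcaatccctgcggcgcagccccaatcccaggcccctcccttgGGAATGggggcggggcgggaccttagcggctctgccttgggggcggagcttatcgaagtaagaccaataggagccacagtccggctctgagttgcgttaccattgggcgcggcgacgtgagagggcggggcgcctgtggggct
Lima1: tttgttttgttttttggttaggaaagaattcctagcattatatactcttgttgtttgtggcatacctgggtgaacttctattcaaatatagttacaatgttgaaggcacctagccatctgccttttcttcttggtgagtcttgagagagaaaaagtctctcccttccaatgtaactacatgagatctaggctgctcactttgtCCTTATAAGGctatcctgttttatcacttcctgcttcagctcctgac
Tpm1: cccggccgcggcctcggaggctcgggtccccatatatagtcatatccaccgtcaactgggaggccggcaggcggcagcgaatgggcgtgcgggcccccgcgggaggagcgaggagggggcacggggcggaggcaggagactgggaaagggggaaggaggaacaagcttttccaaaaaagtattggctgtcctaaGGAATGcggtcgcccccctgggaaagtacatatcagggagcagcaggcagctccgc
Zyx: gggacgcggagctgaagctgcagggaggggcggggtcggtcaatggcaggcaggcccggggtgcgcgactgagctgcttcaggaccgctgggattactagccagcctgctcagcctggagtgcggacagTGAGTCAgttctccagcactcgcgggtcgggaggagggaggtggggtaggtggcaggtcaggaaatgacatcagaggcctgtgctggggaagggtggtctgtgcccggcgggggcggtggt

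The CArG box occurred upstream of Vcl and of Lima1, in both as the letters CCTTATAAGG, 227 to 218 bases before the start in Vcl and 47 to 38 bases before it in Lima1. Of all 32851 promoter windows of this length 1.47% held one. The same letters thus stood upstream of a gene that was higher with EBIO and of the gene that was lower. MCAT letters occurred upstream of Tpm1, Vcl, Flna and Actn4 and in 12.6% of all windows, and AP-1 letters upstream of Zyx and Actn4 and in 6.75% of all windows. No match to any of the 3 motifs was found in the windows of Actn1, Tpm2, Tpm3 (2 windows) or Tpm4. Every gene but Tpm3 had 1 window, so alternative promoters outside these windows were not searched. A match is a stretch of letters and was not tested as a binding site.

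Values are the authors' log2 RMA values, and a difference of 1 is a 2-fold change. For arrays, the number of arrays limits the precision. The 6 ES arrays and the 4 differentiated arrays had been normalized as separate sets (array medians 4.52 to 4.62 and 5.59 to 5.68), so levels are compared within a stage. Replicate arrays correlated at 0.982 to 0.997, lowest for the passage 27 ES control. The pluripotency markers were all above the array median in untreated ES cells. All 10 were called lower with EBIO (limma), where 21.2% of all genes were called lower. Of these, Tdgf1, Fbxo15 and Nr0b1 were under the array median on every EBIO array. They passed the filter on dim genes only through their untreated arrays, so their calls are not read as tests. Pou5f1, the central transcription factor among the 10 markers, measured 11.87, 11.90 and 11.87 in controls and 7.88, 7.29 and 7.89 with EBIO. The control probe sets at the 3' end of Actb exceeded those at its 5' end, a gap that widens as RNA degrades, by 0.33 to 0.50 in ES controls and 0.08 to 0.20 in ES cells with EBIO. The gap was 0.40 to 0.46 and 0.45 to 0.48 in the differentiated groups. For Gapdh the gap was -0.08 to 0.06 in ES controls and 0.01 to 0.04 in ES cells with EBIO. In the differentiated groups without and with EBIO the Gapdh gap was 0.02 to 0.04 and 0.02 to 0.03. The part of these gaps in the results below was not tested.

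In ES cells 9 of the 10 genes were higher after 3 days of EBIO and Lima1 was lower, with no overlap between the groups for any of them. Limma called all 10 at a Benjamini-Hochberg adjusted p of 0.05 over the 12096 genes tested, where 44.8% of all genes were called (23.5% higher and 21.2% lower). The groups did not overlap in 54.7% of all genes (27.9% higher and 26.8% lower). The median change of the 10 genes was 2.05, against -0.04 over all genes tested, and 8 of the 10 changed at least 2-fold. Since the genes were chosen with this contrast known, nothing is read from these shares.

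**Figure D1:**
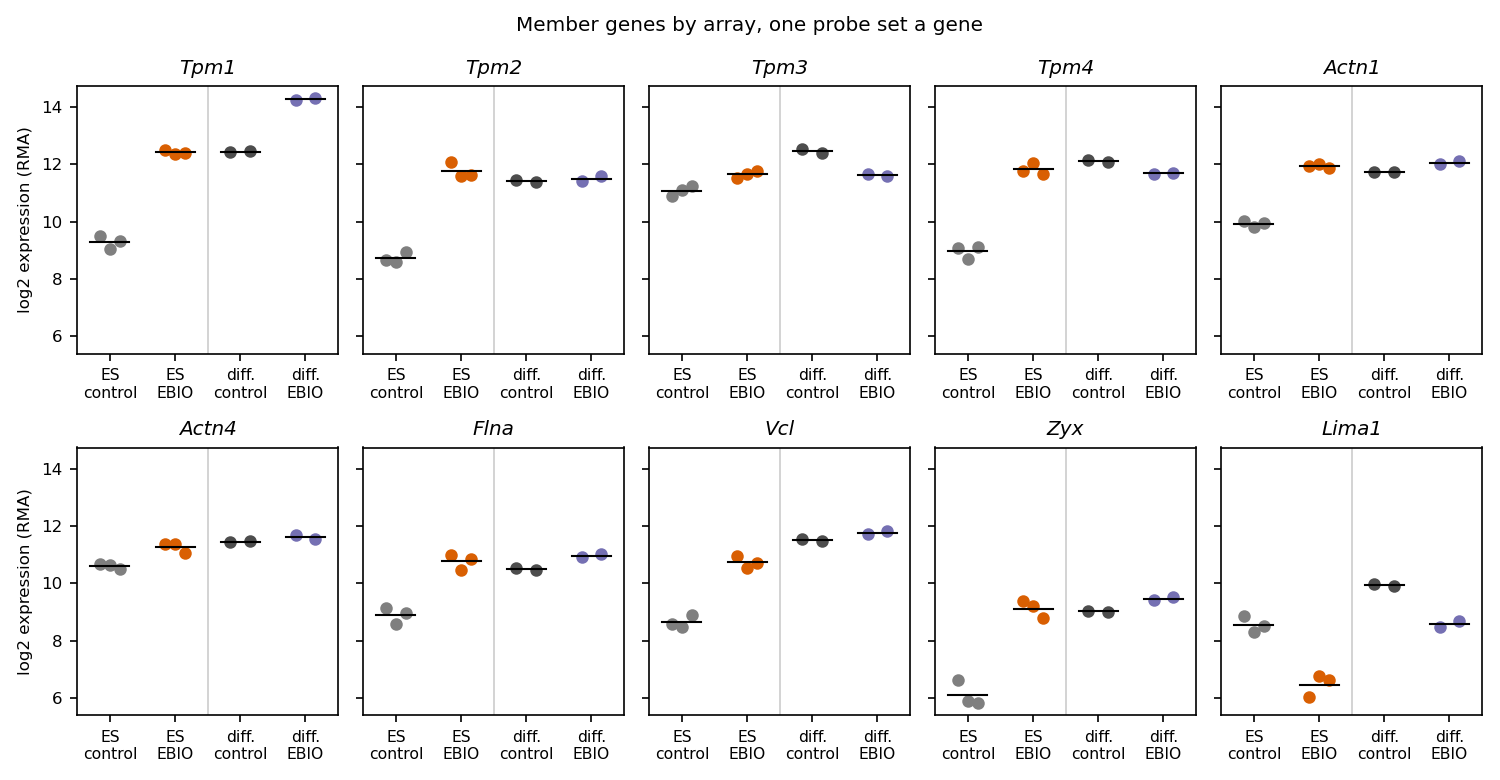
Each panel plots 1 gene, by its probe set with the highest mean, on the log2 RMA scale (vertical axis) in the 4 groups (horizontal axis; diff. is differentiated); points are arrays, bars are group means, and the grey line parts the separately normalized sets. In ES cells all EBIO points lie above the control points except for Lima1, where they lie below; in differentiated cells the distance is smaller for each gene except Tpm3 (0.57 in ES cells and -0.84 in differentiated cells), and for Tpm3, Tpm4 and Lima1 the EBIO points are lower.

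Among the tropomyosins, Tpm1 measured 9.51, 9.06 and 9.32 in untreated ES cells and 12.50, 12.36 and 12.40 with EBIO. The difference of 3.13 ± 0.14 (SE, n = 3 each) is an 8.74-fold rise. Tpm2, whose protein is known from stress fibres and from slow and smooth muscle, read 8.66, 8.59 and 8.96 in controls and 12.07, 11.59 and 11.63 with EBIO. It rose by 3.02 ± 0.17 (SE, n = 3 each), or 8.13-fold. Tpm4, which makes short non-muscle tropomyosins, went from 9.10, 8.69 and 9.13 to 11.77, 12.04 and 11.66, a rise of 2.85 ± 0.17 (SE, n = 3 each). These rises were far larger than the spread within a group, at most 0.26 (SD) for the 3 genes.

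Tpm3 moved least in the family. Its controls read 10.89, 11.12 and 11.25 and its EBIO arrays 11.54, 11.65 and 11.76, 0.57 ± 0.14 higher (SE, n = 3 each). Its control level already ranked at the 98th percentile within the arrays, whereas Tpm1, Tpm2 and Tpm4 lay at the 94th, 91st and 92nd in controls and at the 99th with EBIO. With the mean of its 5 probe sets Tpm3 rose by 0.33. Within the pairs of arrays from the same passage the Tpm3 difference was 0.51 to 0.65, and that of Tpm1 2.99 to 3.31.

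Actin cross-linkers rose as well, to unequal extents. Actn1, the non-muscle alpha-actinin of stress fibres and focal adhesions, read 10.03, 9.83 and 9.95 in untreated ES cells and 11.96, 12.03 and 11.87 with EBIO, a 4.06-fold rise (2.02 ± 0.12, SE, n = 3 each). Actn4, its close relative, read 10.66, 10.63 and 10.51 against 11.38, 11.37 and 11.06, a difference of 0.67 ± 0.13 (SE, n = 3 each). Flna, encoding filamin A, which also anchors actin to membrane proteins, went from 9.13, 8.57 and 8.96 to 10.99, 10.47 and 10.84. Its passage pairs differed by 1.86 to 1.89, so the spread of Flna within each group was shared between same-passage arrays.

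Of the adhesion genes, Zyx and Vcl rose and Lima1 fell. Zyx, a LIM protein that moves to fibres under tension, read 6.64, 5.89 and 5.83 in controls and 9.37, 9.21 and 8.78 with EBIO, or 3.00 ± 0.24 higher (SE, n = 3 each). Vcl, encoding vinculin, read 8.57, 8.46 and 8.90 against 10.94, 10.54 and 10.71, a rise of 2.09 ± 0.16 (SE, n = 3 each). The order of these genes depends on the probe sets, since with the mean of each gene's probe sets Zyx rose by 1.79 and Vcl by 1.88. Lima1 went the other way: 8.85, 8.31 and 8.50 in controls and 6.04, 6.76 and 6.61 with EBIO. It fell by 2.09, with a standard error of 0.21 (n = 3 each), with passage pairs between -2.81 and -1.55. The mean of its 5 probe sets changed by -1.15. Its level dropped from the 90th to the 75th percentile of the arrays.

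After 10 days of EBIO in differentiating cells the set no longer moved as a group. Limma called 5 genes higher and 3 lower of the 10, where 66.0% of 12330 genes were called (33.3% higher and 32.6% lower), and the median change was 0.22 against 0.02 over all genes. The groups did not overlap for 9 of the 10 genes, 6 higher and 3 lower, as for 84.4% of all genes tested (43.4% higher and 41.0% lower). With the 4 groups fitted together 4 of the 10 were called, Tpm1 and Actn1 higher and Tpm3 and Lima1 lower. Without EBIO replicate 2, the calls of Actn1 (adjusted p = 0.0595, limma) and Vcl (adjusted p = 0.124, limma) were lost.

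Tpm1 had the largest change, from 12.43 and 12.47 in untreated differentiated cells to 14.26 and 14.31 with EBIO (1.83 ± 0.07, SE, n = 2 each). That end level is close to the array maximum of 14.59, so the change may be understated. Tpm2 overlapped between the groups, at 11.45 and 11.39 against 11.42 and 11.58, and its difference of 0.08 ± 0.09 (SE, n = 2 each) was not called. Tpm3 fell from 12.55 and 12.39 to 11.68 and 11.59, a change of -0.84 ± 0.09 (SE, n = 2 each). Tpm4 fell from 12.16 and 12.07 to 11.68 and 11.70 (-0.42 ± 0.07, SE, n = 2 each). The 4 tropomyosin genes, all higher in ES cells with EBIO, thus had 1 rise, 2 falls and 1 gene without a call here.

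The 3 cross-linkers, Vcl and Zyx differed by 0.17 to 0.47 in differentiated cells, and Lima1 by more. Flna read 10.54 and 10.45 without and 10.91 and 11.02 with EBIO, Zyx 9.05 and 9.00 against 9.42 and 9.51, and Actn1 11.72 and 11.74 against 12.01 and 12.12. Their differences were 0.47, 0.44 and 0.33, each 1.26- to 1.38-fold, and with the mean of all probe sets Actn1 rose by 0.66 and Vcl by 0.41. Vcl was 0.26 ± 0.07 higher (SE, n = 2 each; 11.53 and 11.47 against 11.72 and 11.81), and its call was lost whichever array was left out and in the fit blocked on replicate number (adjusted p = 0.0519, limma). Actn4 differed by 0.17 ± 0.08 (SE, n = 2 each) and was not called. Lima1 fell again, from 9.96 and 9.91 to 8.49 and 8.70 (-1.34 ± 0.09, SE, n = 2 each), and was lower with EBIO in both stages.

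The EBIO change in differentiated cells minus that in ES cells was negative for every gene except Lima1. It was called for 9 of the 10 genes, all lower, in the limma fit of all 10 arrays, where 45.5% of 13706 genes were called, 20.5% higher and 25.0% lower. Since the genes were chosen with both changes known, nothing is read from these shares. The difference of changes was -3.28 ± 0.22 for Tpm4, -2.94 ± 0.23 for Tpm2, -2.56 ± 0.33 for Zyx and -1.29 ± 0.19 for Tpm1 (SE, 10 arrays). With the mean of all probe sets it was -1.60 for Tpm2, -1.38 for Zyx, -0.61 for Tpm1 and -0.45 for Tpm3, each still called, and 0.17 for Lima1. That of Actn4, -0.50 ± 0.18, was lost without any 1 of 8 of the arrays and after quantile normalization of all arrays. For Lima1 it was 0.75 ± 0.30, not called. The Lima1 difference was called higher without ES control replicate 2 (0.87, adjusted p = 0.0455, limma). It was also called without ES EBIO replicate 2 (0.89, adjusted p = 0.0332, limma). The stages also differ in EBIO duration, in normalization set and perhaps in dose, and these cannot be told apart from stage.

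**Figure D2:**
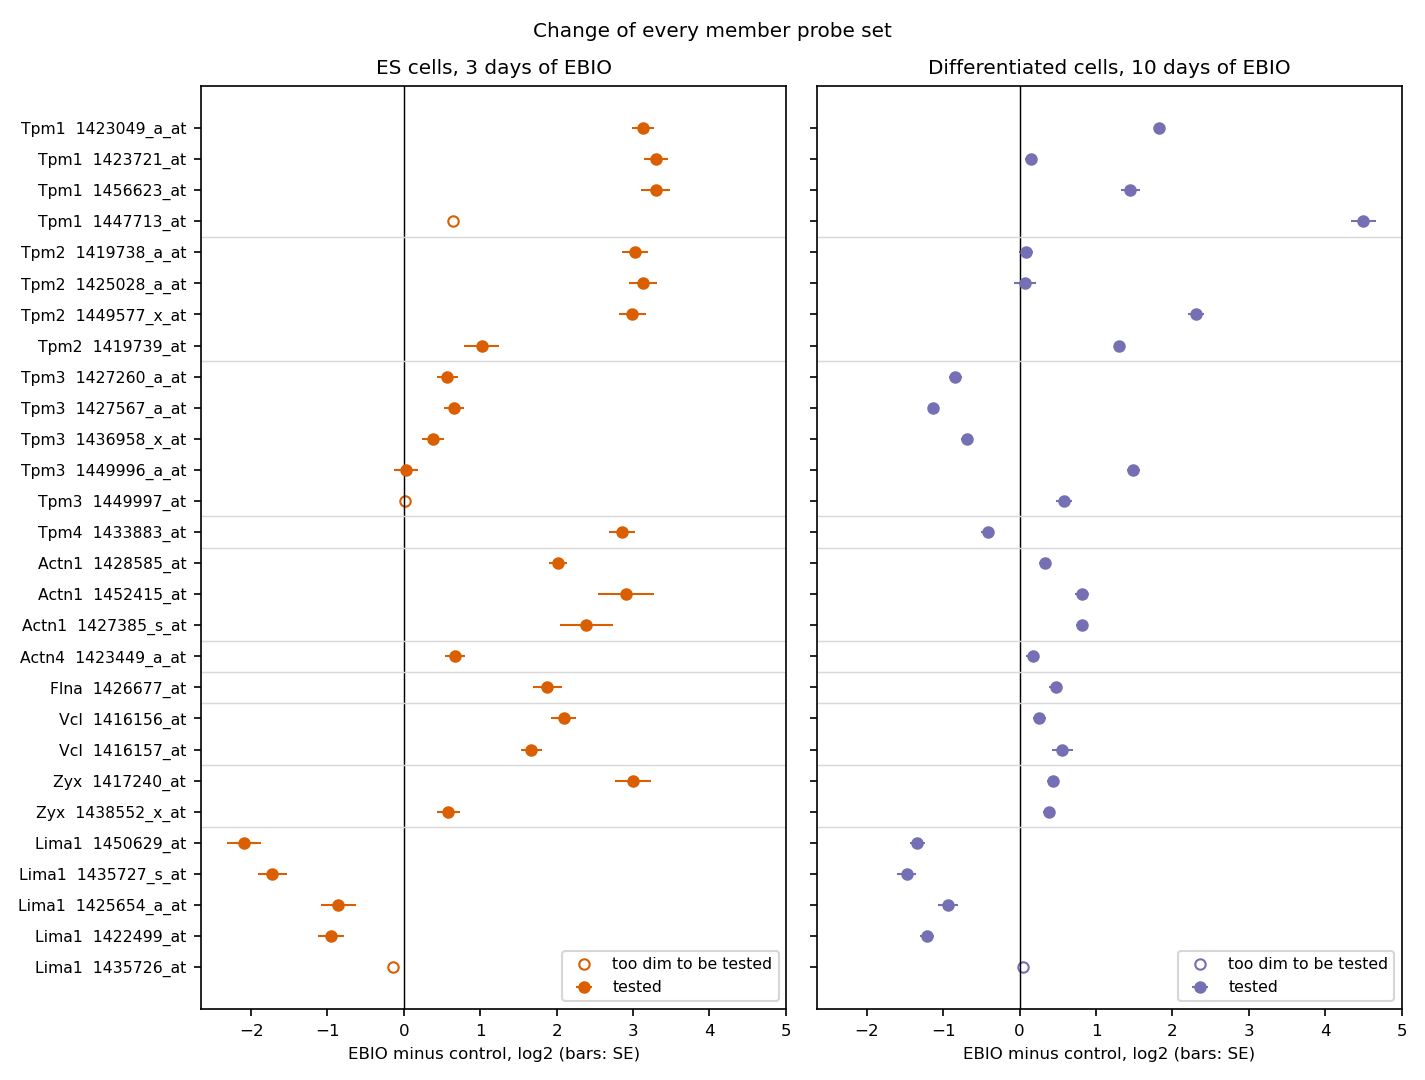
The EBIO minus control difference (horizontal axis, log2) of all 28 probe sets, one per row, in ES cells (left) and differentiated cells (right), with standard errors; open circles were too dim to be tested and carry no error. Probe sets of Lima1 lie left of 0 in both panels, except the dimmest in differentiated cells, whereas those of Tpm1, Tpm2 and Tpm3 spread apart in differentiated cells.

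Probe sets of a gene read different stretches of its transcripts, and for the tropomyosins they did not move alike. In ES cells 19 of the 28 probe sets were called higher and 4 lower, all 4 of Lima1, where 39.5% of 23180 probe sets were called (21.8% higher and 17.6% lower). Groups did not overlap for 25 of the 28, 21 higher and 4 lower, against 50.5% of all probe sets (26.8% higher and 23.7% lower). In differentiated cells 15 were higher and 8 lower, where 61.1% of 23666 were called (33.6% higher and 27.5% lower). Among the 15, 1447713_at of Tpm1, 1419739_at of Tpm2 and 1416157_at of Vcl passed the filter only through their EBIO arrays. So did 1449577_x_at and 1419739_at of Tpm2 among the 19 in ES cells. The calls of these probe sets are not read as tests. Groups did not overlap for 17 higher and 8 lower, against 82.1% of all (45.6% and 36.6%). For the difference between the stages 3 were higher and 17 lower, where 39.6% of 27475 were called (18.6% higher and 21.1% lower). The 4 Lima1 probe sets above the filter fell in both stages, by 0.86 to 2.09 in ES cells and by 0.94 to 1.48 in differentiated cells. The fifth, near or under the array medians, differed by -0.14 and 0.05 and was not tested. Which transcript a probe set reads was not determined, because probe sequences were not used here.

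Tpm1 shows the widest split. Its probe set 1447713_at read 3.28, 3.14 and 3.51 in untreated ES cells and 3.51, 4.14 and 4.21 with EBIO, under the array median on all 6 arrays. In differentiated cells it read 5.50 and 5.02 without EBIO, still under the median, and 9.75 and 9.77 with it. The difference was 4.50 and is understated by the dim start. This probe set passed the filter only through its EBIO arrays, so the difference is a description and its call is not read as a test. Probe set 1423721_at did the reverse: it rose by 3.30 ± 0.16 in ES cells (SE, n = 3 each) and by 0.15 ± 0.08 in differentiated cells (SE, n = 2 each), where it was not called. The other pair, 1423049_a_at and 1456623_at, rose in both stages, by 3.13 and 3.30 in ES cells and by 1.83 and 1.45 in differentiated cells.

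In Tpm3 the signs differed. In differentiated cells 3 probe sets fell with EBIO, 1427260_a_at by 0.84, 1427567_a_at by 1.13 and 1436958_x_at by 0.69. The other pair rose: 1449996_a_at went from 5.77 and 5.70 to 7.16 and 7.29, and 1449997_at from 5.89 and 6.18 to 6.63 and 6.61. With the mean of its probe sets in place of the brightest, the Tpm3 difference was -0.12 (adjusted p = 0.141, limma), short of a call. In ES cells the first 3 differed by 0.57, 0.66 and 0.38, the last of these not called, and the other pair by 0.03 and 0.01 with overlapping groups. So 1427260_a_at and 1427567_a_at rose in ES cells and fell in differentiated cells.

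Tpm2 probe sets also divided in differentiated cells. Its bright probe sets 1419738_a_at and 1425028_a_at rose by 3.02 and 3.13 in ES cells and differed by 0.08 and 0.07, with overlapping groups, in differentiated cells. Its dimmer probe sets 1449577_x_at and 1419739_at rose in both stages, by 2.99 and 1.02 in ES cells and by 2.31 and 1.30 in differentiated cells. With the mean of all 4, Tpm2 rose by 0.94 in differentiated cells (adjusted p = 1.9e-04, limma). The gene's result in differentiated cells therefore depended on which probe set stood for it.

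**Figure D3:**
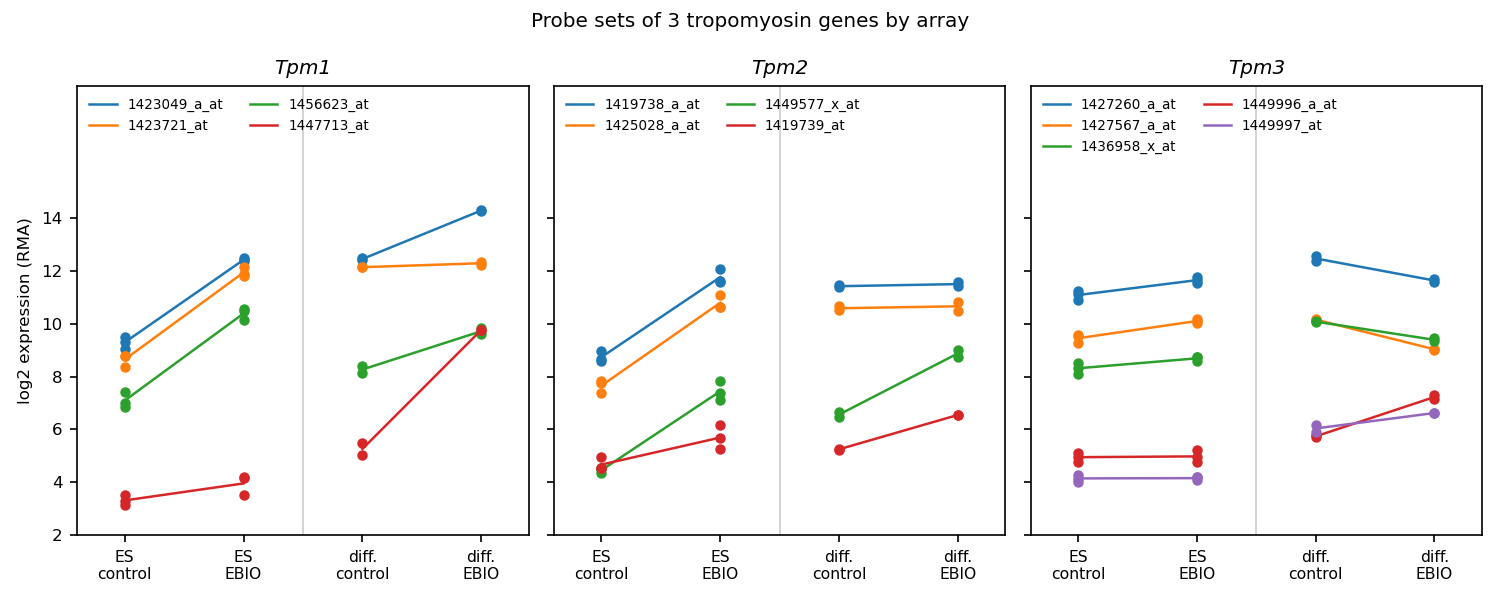
Log2 RMA values (vertical axis) of every probe set of Tpm1, Tpm2 and Tpm3 in the 4 groups (horizontal axis); points are arrays and lines join the means of a stage's control and EBIO groups. The red Tpm1 line (1447713_at) stays near the bottom in ES cells and climbs to 9.75 and 9.77 in differentiated cells with EBIO, where the orange line (1423721_at) is flat; in Tpm3 the upper 3 lines drop and the lower pair climbs.

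Actn1, Vcl and Zyx probe sets kept one direction. The Actn1 probe sets 1452415_at and 1427385_s_at rose by 2.91 ± 0.37 and 2.39 ± 0.35 in ES cells (SE, n = 3 each). Both were low in the passage 27 arrays of either group: 1452415_at read 7.27, 7.35 and 6.06 in controls and 10.12, 10.05 and 9.25 with EBIO. In differentiated cells each of the 2 rose by 0.82. The dimmer Vcl probe set rose by 1.67 and 0.56 in the 2 stages, and the dimmer Zyx probe set by 0.58 and 0.38. With both passage 27 arrays left out, limma still called 9 of the 10 genes higher and 1 lower in ES cells.

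Levels can be placed across the 2 array sets only by their rank on each array. Zyx stood at the 72nd percentile in untreated ES cells, the 93rd with EBIO, and the 83rd and 87th in differentiated cells without and with EBIO. Lima1 stood at the 90th, 75th, 90th and 79th percentile in the same order. For Tpm1 these were the 94th, 99th, 99th and 100th, and for Vcl the 91st, 98th, 97th and 98th. The ES EBIO arrays and the differentiated control arrays did not separate in rank for Tpm1 (99 to 100 against 99), and such ranks are a description across sets with different value distributions.

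Related genes of the same machinery were counted from lists chosen with earlier results known. In ES cells 20 of 23 tested actomyosin genes rose and 1 fell, with a median of 1.36 against -0.04 over all genes (23.5% of all genes called higher and 21.2% lower). Acta2 and Tagln, smooth muscle actin and the actin-bundling transgelin, rose most by their brightest probe sets, by 4.94 ± 0.43 (SE, n = 3 each, adjusted p = 3.9e-05, limma) and 4.80 ± 0.29 (adjusted p = 5.6e-06, limma). Acta2 read 7.72, 5.70 and 6.37 in controls and 11.84, 11.44 and 11.34 with EBIO, the controls being the more scattered group. With the mean of all its probe sets Acta2 rose by 1.65, against 4.80 for Tagln. Svil, encoding supervillin, a membrane-linked actin and myosin binder, fell by 0.94 (adjusted p = 5.5e-04, limma).

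Focal adhesion genes rose in 13 of 23 and fell in 4 in ES cells (median 1.17), where 23.5% of all genes were called higher and 21.2% lower. Parva, encoding the integrin-linked adaptor alpha-parvin, went from 4.74 to 8.85 (4.11 ± 0.16, SE, n = 3 each, adjusted p = 7.0e-07, limma). Lpp, a LIM protein related to zyxin, rose by 3.51 (adjusted p = 1.6e-04, limma), and by 2.29 with the mean of its probe sets. Trip6, another relative of zyxin, fell by 1.53 (adjusted p = 3.2e-05, limma), and Fblim1, whose protein binds filamin, by 1.67 (adjusted p = 2.5e-04, limma). The zyxin family thus included Zyx and Lpp among the rises and Trip6 among the falls.

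In ES cells 9 heart sarcomere genes could be tested, and 2 were higher and 3 lower (median -0.18), where 23.5% of all genes were higher and 21.2% lower. Without the filter on dim genes 2 were called higher and 7 lower of 16, and with the filter at the 75th percentile none could be tested. Tnnc1, the slow troponin C gene, rose by 1.35 (0.86 with the passage 27 arrays left out) and Actc1 by 0.94, against -1.30 for Ttn, the titin gene, and -0.47 for Myl7. Actc1 was under the array median in all ES controls and passed the filter only through its EBIO arrays. The other 7 of the 16 sarcomere genes were too dim to be tested, among them Myh6, at 4.15 and 3.72.

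In differentiated cells the same lists were mixed. Actomyosin genes rose in 12 of 25 and fell in 4 (median 0.19, against 0.02 over all genes), where 33.3% of all genes were called higher and 32.6% lower. Nexn, encoding the actin-binding nexilin, rose by 2.82 and Myl9, a regulatory myosin light chain, by 2.44, whereas Synpo fell by 2.57 and Tagln2 by 1.23 (adjusted p = 5.0e-05 or less, limma). Focal adhesion genes rose in 8 of 23 and fell in 11 (median -0.16): Tln2 and Enah rose by 1.59 and 1.30, and Trip6 and Tns3 fell by 2.39 and 1.81. With the mean of their probe sets Synpo changed by -0.97 and Tns3 by -1.0. With the 4 groups fitted together 12 focal adhesion genes were called, 5 higher and 7 lower.

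**Figure D4:**
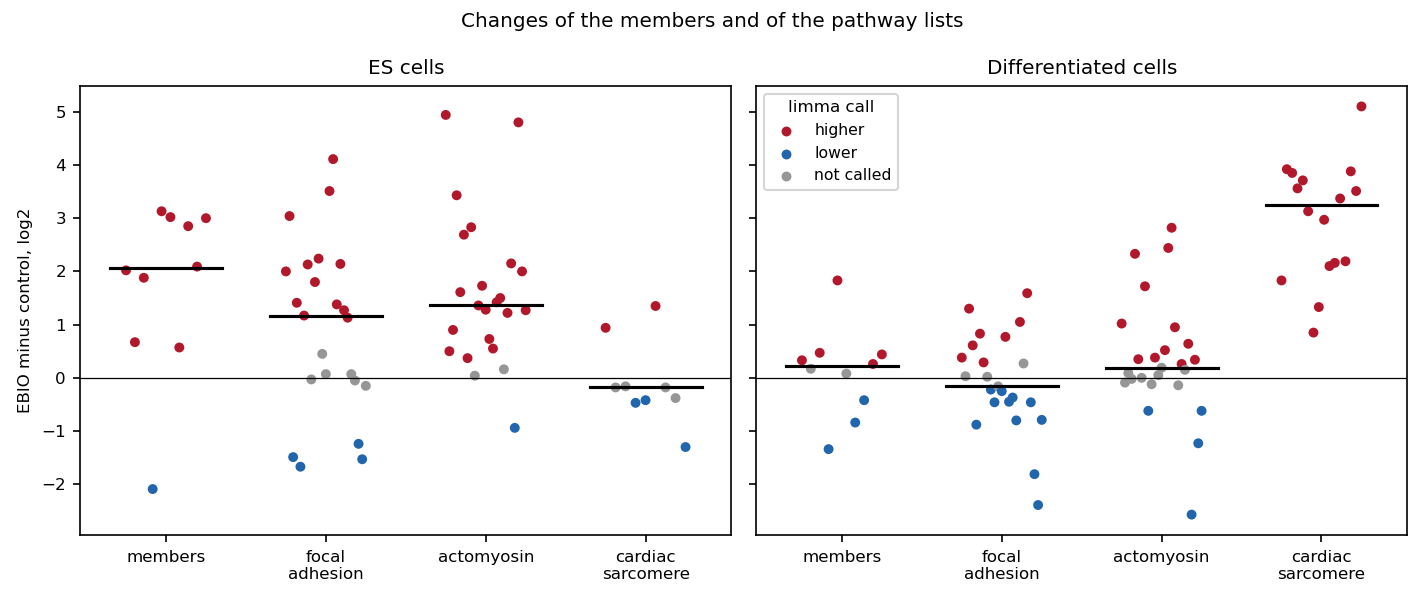
The EBIO minus control difference (vertical axis, log2) of the 10 genes and of 3 pathway lists (horizontal axis) in ES cells (left) and differentiated cells (right); each point is a tested gene, coloured by its limma call, and bars are medians. The bars for the 10 genes, focal adhesion and actomyosin stand at 2.05, 1.17 and 1.36 in ES cells and at 0.22, -0.16 and 0.19 in differentiated cells, where the cardiac sarcomere bar stands at 3.25.

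Sarcomere genes rose in 16 of 16 in differentiated cells (median 3.25, against 0.02 over all genes), where 33.3% of all genes were called higher and 32.6% lower. Ttn rose by 5.10 (adjusted p = 1.5e-06, limma). Actn2, the sarcomeric relative of Actn1 and Actn4, went from 7.75 and 7.62 to 11.59 and 11.63 (3.92 ± 0.08, SE, n = 2 each, adjusted p = 1.9e-06, limma). In differentiated cells Actn2, Actn1 and Actn4 thus differed by 3.92, 0.33 and 0.17, while in ES cells Actn2, at 4.79 and 4.08, was too dim to be tested. Myh6, a heart myosin heavy chain gene, rose from 10.69 and 10.31 to 14.16 and 14.25.

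Markers of other cell types moved with these results. In differentiated cells the log2 of the summed signal of 16 sarcomere genes was 14.49 to 14.60 without and 17.27 to 17.28 with EBIO. For 8 fibroblast markers it was 15.78 to 15.83 and 11.86 to 11.95, with all 8 lower and Lum and Thy1 under the array medians with EBIO. The 8 macrophage markers were all lower too, at 14.10 to 14.35 and 7.37 to 7.38, and all 8 were under the medians with EBIO. These 8, like Lum and Thy1, passed the filter only through their untreated arrays, so their calls are not read as tests. Endothelial markers were lower in 7 of 7 tested and epithelial ones in 8 of 8. Of the tested endothelial markers, Cdh5, Pecam1, Tek and Emcn were under the medians with EBIO. They passed the filter only through their untreated arrays, so their calls are not read as tests either. Among all genes tested in this comparison 33.3% were called higher and 32.6% lower. Smooth muscle markers were higher in 5 of 7, Acta2, Tagln, Cnn1, Lmod1 and Synpo2, and lower in 2, Smtn and Des (median 1.02). Their sum was 13.70 to 13.76 without and 14.45 to 14.55 with EBIO. Myh11 was under the medians in both groups. Synpo2 was under them without EBIO and passed the filter only through its EBIO arrays, so its call is not read as a test. In these mixed cultures fewer cells of a type and less RNA per cell cannot be told apart, and the part of these cells in the changes of the 10 genes was not tested.

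In ES cells the fibroblast sum stayed at 6.97 to 7.05 in controls and lay within that range with EBIO, and 7 of the 8 fibroblast markers, all but Col1a2, were under the array median on every ES array. Col1a2 read 4.67 ± 0.05 and 4.68 ± 0.10 (SD, n = 3 each), at the 52nd and 53rd percentile. The smooth muscle sum went from 8.70 to 9.47 in controls to 12.70 to 12.94 with EBIO; 3 of its 6 tested markers rose and 1 fell, and Myh11, a defining marker, was under the median throughout. Its 3 rises, Acta2, Tagln and Cnn1, are also in the actomyosin list. Of the epithelial markers 4 of 8 rose and 2 fell, where 23.5% of all genes were called higher and 21.2% lower. The rises were Krt8, Krt18, Krt19 and Cldn6, with Krt18 at 8.18 ± 0.57 untreated and 12.26 ± 0.25 treated (SD, n = 3 each). The falls were Epcam and Cldn4, with changes of -0.45 and -1.51. Cdh1 and Cldn7 differed by 0.10 and -0.41 and were not called. The pluripotency sum fell from 14.89 to 15.03 to 10.99 to 11.28, and its part in the result was not tested.

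The genes closest in pattern to the mean of the 10 over the 10 arrays, with each array set centred on its own mean, were Itm2c (Pearson's r = 0.999), Cnn2 (0.997), Tagln, Prnp and Jun (each 0.996), among 10921 genes tested in both stages. Cnn2 encodes an actin-binding calponin and Jun an AP-1 subunit. Jun read 4.88, 4.70 and 4.91 in ES controls and 8.64, 8.53 and 8.68 with EBIO, and 10.24 and 10.07 against 10.30 and 10.40 in differentiated cells. Among the 10 genes themselves, correlation with their own mean was 0.92 or more for 8, 0.56 for Tpm3 and -0.87 for Lima1. All these points share the 4 groups, so the values describe the large ES step and the small differentiated one.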

How the data were processed

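The authors summarised the arrays by RMA on a log2 scale before they deposited them, as the submitters' processing notes name; its version is not given in the sources used here. This method removes background, equalises the distributions of a set of arrays and summarises probes, so differences from dim probe sets are understated. Of 45101 probe sets 64 were controls and left out; 34958 had 1 gene symbol, 932 several and 9211 none, per the platform annotation, and 34754 symbols were updated through a RefSeq table. A gene was represented by the brightest of its probe sets (mean of 10 arrays) and tested where it exceeded the array median (50th percentile) on as many arrays as the smallest group held.

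Limma 3.58.1 in R 4.3.3 (lmFit, eBayes; tested on simulated data) was fitted per stage, and on all arrays for the difference between stages, with Benjamini-Hochberg adjustment over all genes and a threshold of 0.05. The probe sets were also fitted without collapsing. The 10 genes, the lists and the naming rule (all 10 genes, the 2 largest called changes in each direction per list, fixed marker genes, the 5 genes most alike in pattern) were chosen with earlier results of these data known; motifs were chosen from background knowledge. Ptk2 is not analysed here, having no probe set that names it alone. Some items of the lists are not reported here.

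ES replicate numbers mark the passage, so same-numbered arrays are pairs by passage. Their deviations from group means correlated at 0.33, 0.23 and 0.62, and those of differently numbered arrays at -0.51 to 0.24. The main fits and their standard errors did not use this pairing. Alternatives were the filter, the mean of probe sets, the normalization, limma-trend, the replicate block, fitting all groups together and leaving out arrays.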

Additional observations from a re-analysis of the deposited data

Results flagged for a closer look

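The difference between the EBIO changes in differentiated and ES cells was called by the limma interaction fit for 9 of the 10 genes. The genes were chosen with both changes known, so these calls are a description and not a test. Of all 13706 genes tested 45.5% were called, 20.5% higher and 25.0% lower. On the log2 scale, differentiated minus ES, the differences of the 9 were -1.29 for Tpm1, -2.94 for Tpm2, -1.40 for Tpm3, -3.28 for Tpm4, -1.69 for Actn1, -0.50 for Actn4, -1.41 for Flna, -1.83 for Vcl and -2.56 for Zyx. Of the 18 other probe sets of the 10 genes, 11 differed and none of these was of Lima1, where 39.6% of 27475 probe sets were called. Those lower in the difference were 1423721_at (-3.15) and 1456623_at (-1.84) of Tpm1, 1425028_a_at (-3.06) of Tpm2, 1427567_a_at (-1.79) and 1436958_x_at (-1.07) of Tpm3, 1452415_at (-2.09) and 1427385_s_at (-1.57) of Actn1 and 1416157_at (-1.11) of Vcl. Higher were 1447713_at of Tpm1 (3.86) and 1449996_a_at and 1449997_at of Tpm3 (1.46 and 0.57). Of these, 1447713_at passed the filter only through its differentiated EBIO arrays, so its value is a description.

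Named genes of the pathway lists differed in the same test, at which 45.5% of all genes were called. Adhesion genes that were relatively lower in differentiated cells were Parva (-4.57), Lpp (-2.74), Trip6 (-0.86) and Tns3 (-0.57). Those relatively higher were Fblim1 (0.79), Tln2 (1.52) and Enah (2.79), and Enah fell in ES cells and rose in differentiated cells. Actomyosin genes gave -3.92 for Acta2, -4.46 for Tagln, -2.81 for Synpo and -3.23 for Tagln2, against 1.58 for Svil, 2.92 for Nexn and 1.02 for Myl9. Synpo and Nexn were under the array median on every ES array and were not tested there, so their differences are a description. Sarcomere genes gave 2.03 for Tnnc1, 0.89 for Actc1, 6.40 for Ttn, 2.57 for Myl7 and 4.63 for Actn2. As Actn2 was too dim to be tested in ES cells, its difference is a description too.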

How the results depend on the processing

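In ES cells 9 of the 10 genes were called higher and 1 lower under each of the 16 alternatives. In differentiated cells the count called was 8, and 4 to 9 over 14 alternatives: 4 with all 4 groups fitted together, and 6 to 7 when 1 array was left out, where the lone array of a group is assumed to vary like the others. For the difference between the stages it was 9, and 8 to 9 over 18 alternatives. With the replicate number as a block, 10 genes were called in ES cells, 7 in differentiated cells and 9 for the difference; the lost call was that of Vcl, and no other call of the 10 genes changed. The 2 pairs of differentiated arrays correlated at -0.13; with the numbers crossed, chosen after seeing the data, 8 genes were called.

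Called sarcomere genes in ES cells numbered 5, but 9 without the filter, 9 with all groups fitted together and 0 with the filter at the 75th percentile, which left none to test. Called focal adhesion genes in differentiated cells numbered 19, and 12 with all groups fitted together. Without differentiated EBIO replicate 2, Tpm2 changed by -0.0047 in place of 0.08, and by 0.16 without replicate 1; none was called. The causes were not tested. Dim probe sets limit what can be read of Tpm1, Tpm3 and Lima1 in ES cells.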
